A study of Mus musculus with 17 samples.

Results

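Most of the genes described here encode sensors upstream of the transcription factor ATF4 or the translation initiation factor that the sensors act on. Others encode phosphatase subunits that reverse that action, a subunit of the initiation factor's exchange factor (*Eif2b5*), and a translation repressor (*Eif4ebp1*). *Eif4ebp1* is itself an ATF4 target and not a sensor upstream of it. The genes are a list of names, with no threshold on their values: *Eif2ak1*, *Eif2ak3*, *Eif2ak4*, *Oma1*, *Dele1*, *Ppp1r15a*, *Ppp1r15b*, *Eif2s1*, *Eif4ebp1* and *Eif2b5*. All 10 were among the 56748 genes of the count table, and all 10 passed the filter on low counts, as did 16195 genes in all.

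In the integrated stress response, any of a small family of kinases phosphorylates the alpha subunit of eIF2, the factor that brings the initiator tRNA to the ribosome. Phosphorylated eIF2 blocks its own exchange factor, eIF2B, so that general translation slows while mRNAs such as that of ATF4 are translated more. In mitochondrial stress, the inner membrane protease OMA1 cleaves DELE1, which then activates the kinase HRI in the cytosol, and the phosphatase subunits GADD34 and CReP recruit protein phosphatase 1 to remove the phosphate again. These steps are changes in proteins, and RNA-seq measures only the abundance of the mRNAs.

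Poly(A)-selected RNA was sequenced from 17 heart tissue samples, 9 from *Polg* hMut mice (hMut) and 8 from controls (Ctrl), all from animals of 12 to 16 months. The hMut mice carried *Polg* iMut/iMut with +/Ckmm-cre, in which cre removed a loxP-flanked wild-type *Polg* cassette so that proofreading-deficient POLG, an error-prone mtDNA polymerase, was expressed. The muscle creatine kinase promoter drives this cre in muscle cells, so the other cells of the heart kept the unrecombined allele and were part of the same RNA samples. No treatment was given, and the genotype of the Ctrl mice, and the age and sex of each mouse, were not given in the sources used here. The labels do not state that each sample came from a separate mouse, so the p-values measure the spread between these samples only.

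The libraries held 34425783 to 46486964 counts in Ctrl and 32915159 to 40175122 in hMut, and the share of mtDNA-encoded transcripts was 23.5 to 30.9% in Ctrl and 15.9 to 23.0% in hMut. *Polg* itself had 34.7 ± 7.31 CPM (the count scaled by TMM-adjusted library size) in Ctrl (SD, n = 8) and 57.9 ± 6.08 in hMut (SD, n = 9), a log2 difference of 0.74 (adjusted p = 0.000448), which checks no loss because the recombined allele stays transcribed. All 16 cardiomyocyte markers were detected, with a summed level of 67710 to 80650 CPM in Ctrl and 52090 to 80850 CPM in hMut, and none of the 16 passed the test (median log2 difference -0.21). The hMut replicates 6 and 9 stood apart, at 52370 and 52090 CPM for these markers. Their summed myeloid markers were at 1441 and 728.5 CPM, against 259.4 to 397.4 CPM in Ctrl, and their fibroblast markers at 2167 and 1696 CPM, against 985.6 to 1155 CPM. In bulk tissue, fewer cells of a type and less RNA per cell cannot be told apart, and the values of the 10 genes that these 2 hearts move most are also given without them.

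Of the 10 genes, 2 passed the threshold (adjusted p under 0.05 by the edgeR quasi-likelihood test over all tested genes), *Ppp1r15a* and *Eif4ebp1*, both higher in hMut. Among all tested genes 4.62% passed, 3.48% as higher and 1.14% as lower in hMut. The other 8 genes did not pass, and *Eif2s1* and *Dele1* had an unadjusted p under 0.05. The median log2 difference over the 10 was 0.025, with 5 values above 0 and 5 below, and over all tested genes it was 0.002. Without hMut replicates 6 and 9, 1 of the 10 passed, *Ppp1r15a*.

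**Figure D1:**
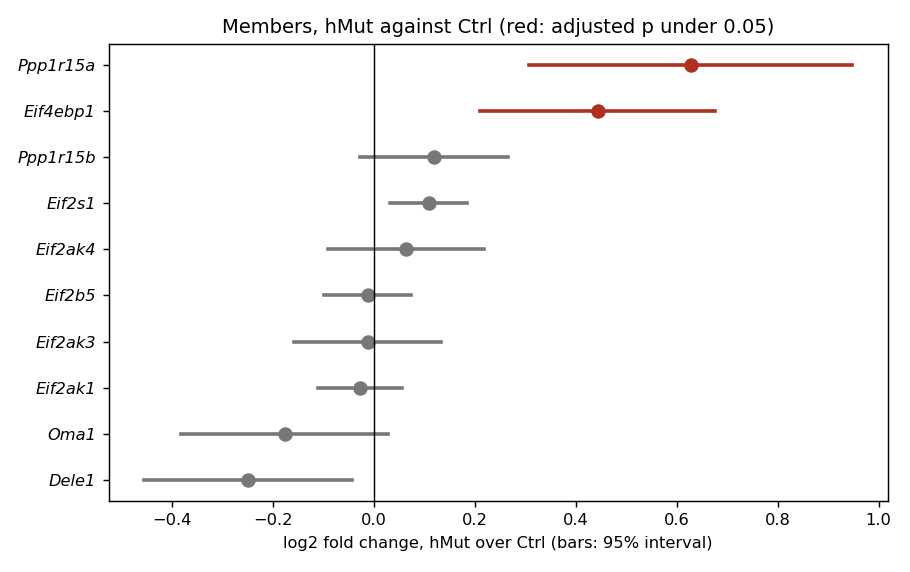
Log2 fold change of hMut over Ctrl (x axis) for each of the 10 genes, with 95% intervals, from 9 hMut and 8 Ctrl hearts; red marks an adjusted p under 0.05. *Ppp1r15a* (0.63) and *Eif4ebp1* (0.44) are the 2 red points, the intervals of *Eif2s1* and *Dele1* also leave out 0, and the 3 kinases and *Eif2b5* lie within 0.07 of 0.

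Per kilobase of gene length, the genes of the Ctrl hearts fell into separate tiers of abundance. The length is that given with the counts. Transcripts made in the heart may differ from it, so the order between genes is approximate. *Eif2b5*, *Dele1* and *Eif4ebp1* were highest, at 22.4 ± 0.98, 21.9 ± 1.27 and 21.3 ± 2.10 CPM per kilobase (SD, n = 8), and their ranges overlapped. *Oma1* came next at 16.8 ± 0.94, then *Eif2s1* at 10.5 ± 0.38, each apart from its neighbours in every Ctrl heart. *Ppp1r15a*, *Eif2ak1* and *Ppp1r15b* had overlapping ranges around 7.04, 7.02 and 6.75 CPM per kilobase. The kinase genes *Eif2ak3* and *Eif2ak4* were lowest, at 1.92 ± 0.19 and 1.13 ± 0.099 CPM per kilobase, with no overlap between them or with the genes above. In hMut, *Eif4ebp1* was first by mean level (28.9 ± 5.89, n = 9), and only the ranges of *Eif2ak1* and *Eif2ak3* were apart from that of the next gene in the order.

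**Figure D2:**
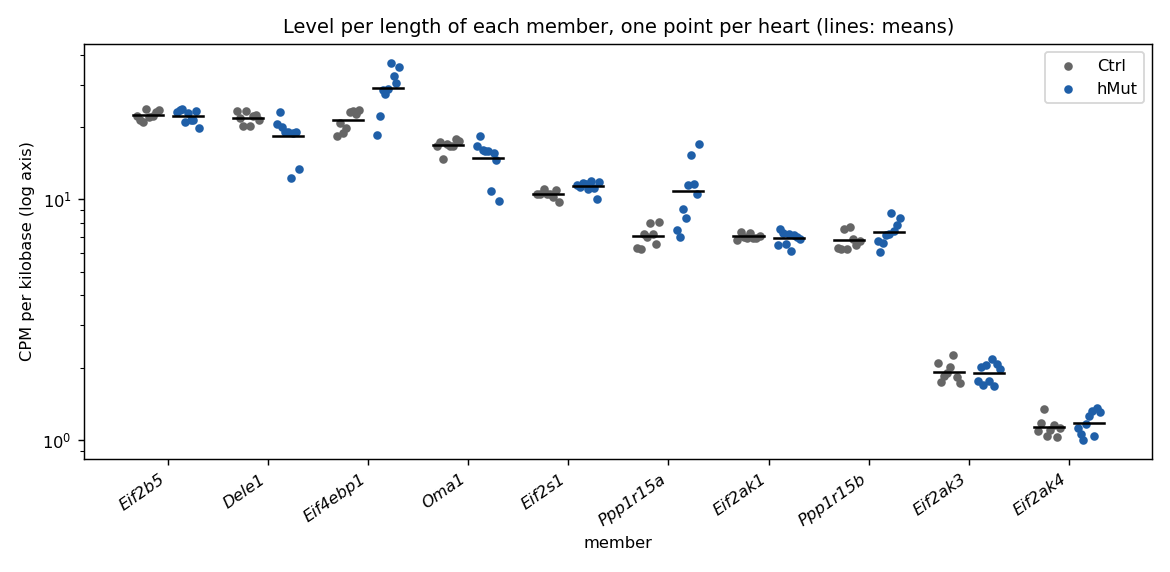
Level of each gene in CPM per kilobase of gene length (log axis), with 1 point per heart (8 Ctrl in grey, 9 hMut in blue) and lines at the group means, in the order of the Ctrl means. *Eif2b5* leads in Ctrl at 22.4 and *Eif2ak4* is last at 1.13, and the hMut points of *Ppp1r15a* and *Eif4ebp1* spread upward from the Ctrl points.

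The 3 kinase genes had like levels in both groups. *Eif2ak1* (chr5:143803543-143841069, GRCm39, plus strand) encodes HRI, the kinase that heme shortage and DELE1 activate. Its lowest, median and highest levels were 38.6, 39.5 and 41.5 CPM in Ctrl and 34.8, 39.4 and 42.7 CPM in hMut. The medians lay close together, and the hMut hearts spread to both sides of the Ctrl range, with 3 below it and 1 above. The log2 difference was -0.03 (95% interval -0.11 to 0.06, adjusted p = 0.669).

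*Eif2ak3* (chr6:70821499-70882229, plus strand) encodes PERK, the sensor of unfolded proteins in the endoplasmic reticulum, and ranged from 10.4 through a median of 11.3 to 13.7 CPM in Ctrl and from 10.1 through 11.8 to 13.1 CPM in hMut. *Eif2ak4* (chr2:118219099-118305715, plus strand) encodes GCN2, which senses uncharged tRNA, and ranged from 7.64 through 8.30 to 9.99 CPM in Ctrl and from 7.45 through 8.69 to 10.1 CPM in hMut. Both pairs of ranges overlapped almost fully. The log2 differences were -0.01 (-0.16 to 0.13, adjusted p = 0.924) and 0.06 (-0.09 to 0.22, adjusted p = 0.603), so the intervals allow changes of up to about these bounds in either direction.

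Per kilobase, with the same limit on gene length, *Eif2ak1* was 6.24 ± 0.50 times the level of *Eif2ak4* in Ctrl (SD, n = 8). In hMut it was 5.91 ± 0.92 times that level (n = 9). Against *Eif2ak3* it was 3.68 ± 0.39 times in Ctrl and 3.65 ± 0.49 times in hMut. The remaining kinase of the family, PKR (*Eif2ak2*), which binds double-stranded RNA, had 20.2 ± 1.79 CPM in Ctrl and 26.5 ± 14.4 in hMut (log2 difference 0.39, adjusted p = 0.234). Its hMut mean rested on replicate 6, at 63.8 CPM, and replicate 9, at 30.5 CPM, and without both it was 20.6 ± 1.21 CPM (n = 7, log2 difference 0.03, adjusted p = 0.832). In replicate 6 the level of *Eif2ak1* per kilobase was 0.491 times that of *Eif2ak2*, and in the Ctrl hearts it was 1.62 to 2.08 times. Among 9 regulators of these kinases, *Eif2ak2* included, only *Hsp90aa1*, a chaperone of kinases, passed (147.4 ± 25.3 to 216.6 ± 46.6 CPM, log2 difference 0.56, adjusted p = 0.0166). *Impact*, an inhibitor of GCN2, had a log2 difference of 0.15 (adjusted p = 0.143), and the median of the 9 was 0.020. *Aimp2*, on the opposite strand, overlaps the end of *Eif2ak1* and had a mean of 470 counts against 1484 for *Eif2ak1*; whether the counting used strand was not given in the sources used here, so reads of the shared stretch cannot be assigned with certainty.

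*Oma1* and *Dele1*, the protease and its signalling substrate, both had lower means in hMut and passed neither test. *Oma1* (chr4:103171009-103229065, plus strand) ranged from 31.7 through a median of 36.1 to 38.3 CPM in Ctrl and from 21.2 through 34.1 to 39.4 CPM in hMut. The 2 lowest hearts were hMut replicates 9 (21.2 CPM) and 6 (23.3 CPM), and 6 of the 9 hMut hearts lay at or above the lowest Ctrl heart. The log2 difference was -0.18 (SE 0.10, 95% interval -0.38 to 0.03, adjusted p = 0.252), and without replicates 6 and 9 it was -0.06 (adjusted p = 0.565).

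*Dele1* (chr18:38383308-38398514, plus strand) ranged from 148.6 through 162.3 to 172.6 CPM in Ctrl and from 90.4 through 140.7 to 170.9 CPM in hMut. Replicates 6 and 9 were again lowest, at 90.4 and 98.9 CPM, and 7 of the 9 hMut hearts lay below every Ctrl heart, the exceptions being replicate 1 (152.0 CPM) and replicate 2 (170.9 CPM). The log2 difference was -0.25 (SE 0.10, 95% interval -0.46 to -0.04, adjusted p = 0.128), and -0.13 without replicates 6 and 9 (adjusted p = 0.163). Without hMut replicate 2 alone it was -0.30 and passed (adjusted p = 0.0488). The summed cardiomyocyte markers were lowest in the same 2 hearts as *Oma1* and *Dele1*, and with libraries scaled on those markers the log2 differences were 0.02 for *Oma1* and -0.06 for *Dele1*, where the median of all genes moved to 0.23. Cell composition and expression per cell cannot be told apart here.

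The ratio of *Dele1* to *Oma1* (CPM) was 4.48 in Ctrl and 4.26 in hMut as geometric means, a log2 difference of -0.07. It overlapped between the groups (two-sided exact permutation test over 24310 assignments, p = 0.0833, the same after adjustment over 3 ratios chosen after the values were seen). Of 12 genes for OMA1 substrates, inner membrane partners and other mitochondrial proteases, *Lonp1*, a matrix protease, was the only one that passed, from 171.8 ± 13.7 to 264.9 ± 40.2 CPM (log2 difference 0.63, adjusted p = 0.000371, higher than all Ctrl in 9 of 9 hearts). *Opa1*, the fusion protein that OMA1 cleaves, had a log2 difference of -0.16 (adjusted p = 0.192), and *Spg7*, a subunit of an inner membrane protease, -0.14 (adjusted p = 0.202). The median over the 12 was -0.028.

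The phosphatase subunits differed in their result. *Ppp1r15a* (chr7:45172340-45175692, minus strand) encodes GADD34, the subunit that cells make in response to stress. Its lowest, median and highest levels were 18.2, 20.7 and 23.6 CPM in Ctrl and 20.5, 30.9 and 49.95 CPM in hMut. The highest hMut hearts were replicates 9 (49.95 CPM) and 6 (45.0 CPM), 7 of 9 lay above every Ctrl heart, and replicates 1 (21.9 CPM) and 2 (20.5 CPM) lay within the Ctrl range. *Ppp1r15a* rose 1.55-fold (95% interval 1.24 to 1.93), with a log2 difference of 0.63 (SE 0.15, adjusted p = 0.0263).

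Without replicates 6 and 9 the log2 difference of *Ppp1r15a* was 0.41 and still passed (adjusted p = 0.0388). Leaving out single hearts gave log2 differences of 0.52 to 0.69 and kept the call in 12 of 17 cases. It was lost, with values of 0.60 to 0.62 and adjusted p up to 0.0548, without Ctrl replicate 1, 2 or 7 or hMut replicate 5 or 7. Read from *Xist* and Y-linked counts, 3 Ctrl hearts were female and 5 male, and 2 hMut hearts were female and 7 male. With this sex as a covariate the log2 difference of *Ppp1r15a* was 0.58 (adjusted p = 0.0483).

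*Ppp1r15b* (chr1:133058881-133067521, plus strand) encodes CReP, the subunit that is made without stress, and did not pass. It ranged from 34.7 through a median of 36.9 to 43.2 CPM in Ctrl and from 34.0 through 40.2 to 48.9 CPM in hMut. The ranges overlapped, with 3 hMut hearts above all Ctrl and 1 below. The log2 difference was 0.12 (95% interval -0.03 to 0.27, adjusted p = 0.284), and 0.05 without replicates 6 and 9 (adjusted p = 0.715).

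The ratio of the subunits was computed after the values were seen, and its numerator is the gene that rose. *Ppp1r15a* was at 0.547 times *Ppp1r15b* in Ctrl and 0.751 times in hMut (geometric means of CPM ratios), and the ratio lay above every Ctrl heart in 6 of 9 hMut hearts. The log2 ratio was -0.87 ± 0.11 in Ctrl (SD, n = 8) and -0.41 ± 0.30 in hMut (n = 9), a difference of 0.46 (two-sided exact permutation test, p = 0.000823, adjusted over the 3 ratios p = 0.00247). Replicates 9 and 6 had the highest ratios, at 1.07 and 0.920, and without them the hMut ratio was 0.694, a log2 difference of 0.34 (two-sided exact permutation test over 6435 assignments, p = 0.00155, adjusted p = 0.00466), with 4 of 7 hearts above every Ctrl heart. None of the partners that these subunits recruit passed. *Actb*, whose actin product joins the complex, had a log2 difference of 0.32 (adjusted p = 0.164), and the catalytic subunits *Ppp1cb* and *Ppp1ca* had -0.08 (adjusted p = 0.265) and -0.04 (adjusted p = 0.447). The median of the 4 genes of that list was -0.022.

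The 250 bases before the annotated start of the 2 genes that rose are shown so that their promoters can be compared. They were read from GRCm39 with GENCODE starts, run 5′ to 3′ on the gene's strand, and cover chr7:45175693-45175942 (minus) and chr8:27750100-27750349 (plus). Capitals mark matches to TGACGTCA, the full cAMP response element that CREB and ATF proteins bind. A core of the C/EBP-ATF composite element that ATF4 binds with a partner, TGATGNAA, was searched as well.
Ppp1r15a: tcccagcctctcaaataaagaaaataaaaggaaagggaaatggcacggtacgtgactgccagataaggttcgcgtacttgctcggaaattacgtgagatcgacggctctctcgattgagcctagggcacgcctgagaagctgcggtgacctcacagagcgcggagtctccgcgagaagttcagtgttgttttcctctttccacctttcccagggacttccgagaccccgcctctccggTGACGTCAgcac
Eif4ebp1: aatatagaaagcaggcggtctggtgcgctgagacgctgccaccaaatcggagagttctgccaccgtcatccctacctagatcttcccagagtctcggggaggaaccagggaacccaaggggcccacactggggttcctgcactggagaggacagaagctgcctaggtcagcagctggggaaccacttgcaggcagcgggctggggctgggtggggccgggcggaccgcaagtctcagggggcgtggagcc
Both strands of each window were searched. *Ppp1r15a* held TGACGTCA from -12 to -5 relative to its start, and 1.69% of 21770 promoter windows of this length held that motif. It held no TGATGNAA, which 3.39% of windows held, and the window of *Eif4ebp1* held neither motif. A match is a description of the sequence only, and no match says only that these letters are not in this window.

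*Eif2s1* and *Eif2b5* encode the phosphorylated subunit of eIF2 and the catalytic subunit of eIF2B. *Eif2s1* (chr12:78908593-78933784, plus strand) ranged from 48.5 through a median of 52.1 to 54.6 CPM in Ctrl and from 49.8 through 57.0 to 58.9 CPM in hMut. In hMut, 8 of 9 hearts lay above every Ctrl heart and replicate 8 (49.8 CPM) did not. The log2 difference was 0.11 (SE 0.04, 95% interval 0.03 to 0.19, adjusted p = 0.0880). It passed with DESeq2 (0.11, adjusted p = 0.0457) and without hMut replicate 8 (0.13, adjusted p = 0.0280), and without replicates 6 and 9 it was 0.09 (adjusted p = 0.215).

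*Eif2b5* (chr16:20317567-20328073, plus strand) ranged from 54.4 through 57.7 to 61.8 CPM in Ctrl and from 51.3 through 59.1 to 61.6 CPM in hMut. The ranges overlapped, with a log2 difference of -0.01 (95% interval -0.10 to 0.07, adjusted p = 0.866). Among 8 other genes for eIF2 and eIF2B subunits and partners, *Eif2s2*, the beta subunit of eIF2, rose from 100.1 ± 5.77 to 130.7 ± 13.9 CPM (log2 difference 0.39, adjusted p = 0.00123), above every Ctrl heart in 9 of 9. *Eif5*, the GTPase-activating factor of eIF2, had 0.15 (adjusted p = 0.0794) and *Eif2b2*, the beta subunit of eIF2B, 0.10 (adjusted p = 0.115). The median over the 8 was 0.084, beside 0.002 over all genes.

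*Eif4ebp1* (chr8:27750357-27766702, plus strand) encodes 4E-BP1, which binds the cap-binding protein eIF4E and holds back cap-dependent translation, and whose gene is an ATF4 target. Its lowest, median and highest levels were 40.4, 47.7 and 51.6 CPM in Ctrl and 40.6, 63.3 and 81.1 CPM in hMut. As with *Ppp1r15a*, replicates 6 (81.1 CPM) and 9 (77.7 CPM) were highest, and replicates 1 (40.6 CPM) and 2 (48.9 CPM) stayed within the Ctrl range while the other 7 lay above it. *Eif4ebp1* rose 1.36-fold (95% interval 1.157 to 1.597), with a log2 difference of 0.44 (SE 0.11, adjusted p = 0.0309).

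Without replicates 6 and 9 the log2 difference of *Eif4ebp1* was 0.34 and did not pass (adjusted p = 0.0786). Leaving out single hearts gave 0.39 to 0.51 and kept the call in 11 of 17 cases, and it was lost without Ctrl replicate 1, 2 or 3 or hMut replicate 5, 7 or 9 (0.40 to 0.44, adjusted p up to 0.0620). With sex as a covariate it was 0.43 (adjusted p = 0.0519).

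*Eif4ebp2*, the related 4E-BP that passed the filter on low counts, had 115.8 ± 7.24 CPM in Ctrl and 116.7 ± 7.63 in hMut (log2 difference 0.01, 95% interval -0.09 to 0.11). The ratio of *Eif4ebp1* to *Eif4ebp2* was 0.403 in Ctrl and 0.535 in hMut, a log2 difference of 0.41 (two-sided exact permutation test, p = 0.0153, adjusted over the 3 ratios p = 0.0229), with 7 of 9 hMut hearts higher than all Ctrl hearts. This ratio too was chosen after the values were seen, and its numerator is the gene that rose. Without replicates 6 and 9 the hMut ratio was 0.485, a log2 difference of 0.27 that did not pass (exact permutation p = 0.0545, adjusted p = 0.0651). In the list of eIF4F subunits and other 4E-BPs, 2 of 10 tested genes passed, both higher. They were *Eif4a1*, the helicase of eIF4F (0.29, adjusted p = 0.0111), and *Eif4g3*, a scaffold subunit (0.21, adjusted p = 0.0356). *Eif4a2*, the paralog of *Eif4a1*, had -0.21 (adjusted p = 0.0826), below every Ctrl heart in 7 of 9, and the median of the list was 0.011.

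**Figure D3:**
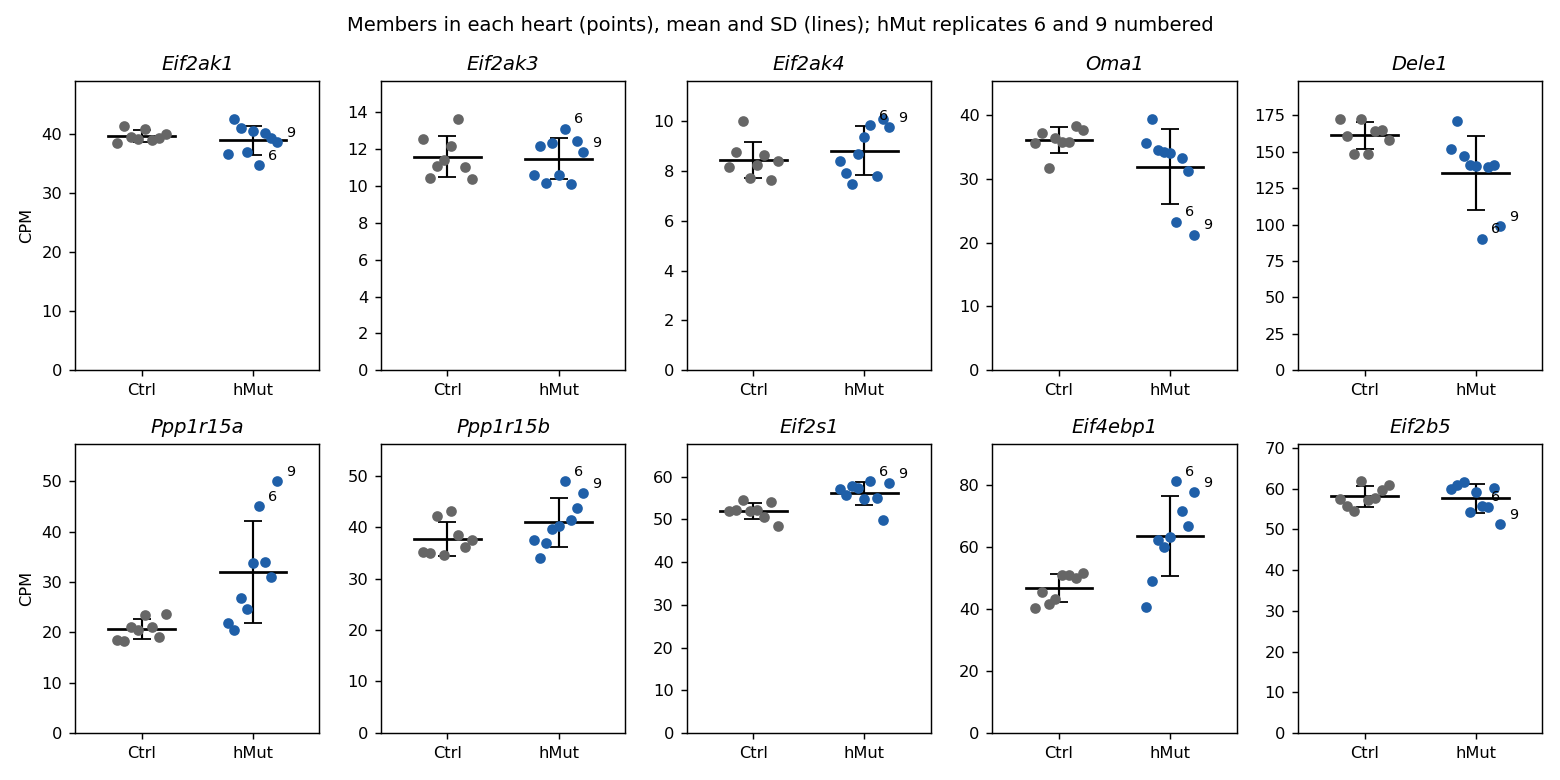
CPM of each gene (y axis, from 0) in the 8 Ctrl (grey) and 9 hMut (blue) hearts, with lines for the mean and SD and numbers at hMut replicates 6 and 9. The numbered hearts are lowest for *Oma1* (23.3 and 21.2 CPM) and *Dele1* (90.4 and 98.9 CPM) and highest for *Ppp1r15a* (45.0 and 49.95 CPM) and *Eif4ebp1* (81.1 and 77.7 CPM), while the kinases overlap between groups.

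The genes downstream of these sensors were higher in hMut as a list. Of 8 transcriptional regulators of the integrated stress response, which include the pseudokinase gene *Trib3*, 7 passed, all higher (median log2 difference 1.35), with *Atf5* at 1.46 (adjusted p = 6.25e-06), *Trib3* at 2.87 (adjusted p = 1.1e-05) and *Atf4* at 1.002 (adjusted p = 0.00147). Of 26 ATF4 target genes, which again hold *Trib3* and *Nupr1*, 19 passed, all higher (median 1.70). The smallest adjusted p were those of *Mthfd2*, a mitochondrial folate enzyme, at 4.07 (adjusted p = 3.82e-07), *Slc7a3*, an amino acid transporter, at 5.10 (adjusted p = 8.895e-07) and, with the same p, *Asns*, the asparagine synthetase, at 3.56 and *Psat1*, of serine synthesis, at 2.74 (adjusted p = 4.565e-06 for both). Of 16 immediate-early genes, which also respond to handling of tissue, 2 passed (median -0.033), *Atf3* at 1.66 (adjusted p = 0.0157) and *Fosl2* at 0.43 (adjusted p = 0.0349), and *Egr2* was at 1.23 (adjusted p = 0.112). *Atf3* is already counted among the 8 regulators above, so of these 2 only *Fosl2* is particular to the immediate-early list. Of 9 heat shock genes, only *Hspb1* passed (0.39, adjusted p = 0.00973, median 0.080), with *Hsph1* at 0.20 (adjusted p = 0.137) and *Hspa1b* at 0.49 (adjusted p = 0.204).

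A score of the 26 target genes (mean log2 CPM with a prior count of 2, minus the Ctrl mean) ran from -0.10 to 0.17 in Ctrl and from 0.78 to 2.52 in hMut (median 1.89), so the hMut hearts differed among themselves. The target list was chosen with earlier results of these data known. *Eif4ebp1* is itself an ATF4 target, and *Ppp1r15a* encodes the subunit that cells make in response to stress. Neither can be taken as independent of the response that the score measures. The relations are therefore given as a description. None of the 10 genes is in the score. Over the 9 hMut hearts, *Ppp1r15a* followed it with Pearson's r = 0.87 (exact permutation p = 0.00228, adjusted over the 10 genes p = 0.0228) and Spearman's rho = 0.90 (p = 0.00203, adjusted p = 0.0203). *Eif4ebp1* had r = 0.84 (exact permutation p = 0.00537, adjusted p = 0.0268) and rho = 0.77 (p = 0.0214, adjusted p = 0.0637). *Dele1* ran the other way, with r = -0.73 (exact permutation p = 0.0286, adjusted p = 0.0692) and rho = -0.85 (p = 0.00607, adjusted p = 0.0304), and *Oma1* had r = -0.71 (adjusted p = 0.0692) and rho = -0.75 (adjusted p = 0.0637).

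The lowest scores were in replicates 2 (0.78) and 1 (1.18), the hearts in which *Ppp1r15a* and *Eif4ebp1* lay within the Ctrl range and *Dele1* was highest. Without these 2 hearts, the farthest from the median score, r was 0.79 for *Ppp1r15a* (exact permutation p = 0.0385, adjusted p = 0.296), 0.62 for *Eif4ebp1* and -0.63 for *Dele1*. None of the 10 then passed over the 7 hearts left, although r kept its sign in these 3 genes and in *Oma1* (-0.62). Without replicates 6 and 9 instead, r was 0.87 for *Ppp1r15a* (exact permutation p = 0.0101, adjusted p = 0.0506), -0.88 for *Dele1* (p = 0.00873, adjusted p = 0.0506), 0.79 for *Eif4ebp1* (adjusted p = 0.130) and -0.68 for *Oma1* (adjusted p = 0.241), so the relations were about as strong but none passed. Of the other genes, *Ppp1r15b* had r = 0.74 (adjusted p = 0.0692) and *Eif2b5* r = -0.65 (adjusted p = 0.0928), and *Eif2ak1*, *Eif2ak3*, *Eif2ak4* and *Eif2s1* had r from -0.26 to 0.39, with exact permutation p of 0.301 or more. The permutations number 362880 for 9 hearts and 5040 for 7.

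**Figure D4:**
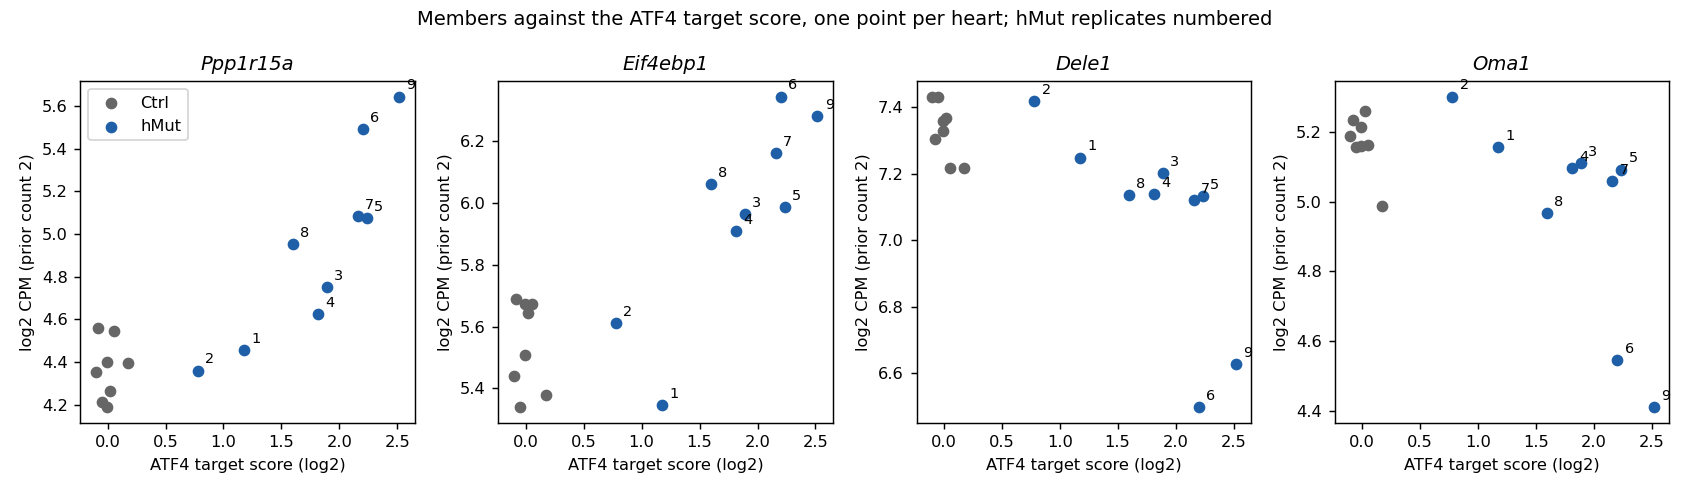
Log2 CPM (prior count 2, y axis) of *Ppp1r15a*, *Eif4ebp1*, *Dele1* and *Oma1* against the ATF4 target score (log2, x axis), 1 point per heart, 8 Ctrl in grey and 9 hMut numbered in blue. Within hMut, *Ppp1r15a* climbs with the score (r = 0.87) and *Dele1* declines (r = -0.73), with replicates 2 and 1 at the low end of the score and replicates 6 and 9 at the extreme levels.

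Among the 9 hMut hearts some of the genes moved in blocs. This is given as a description because the points share libraries and the 2 hearts that stand apart. *Dele1* and *Oma1* had r = 0.97 with each other (log2 CPM), and *Ppp1r15a* had r = 0.91 with *Ppp1r15b* and 0.89 with *Eif4ebp1*. Between the blocs r was negative, at -0.91 for *Ppp1r15a* with *Oma1* and -0.90 with *Dele1*. Without replicates 6 and 9 these values were 0.91 for *Dele1* with *Oma1*, and 0.79 and 0.85 for *Ppp1r15a* with *Ppp1r15b* and *Eif4ebp1*. Those of *Ppp1r15a* with *Oma1* and *Dele1* were then -0.78 and -0.82. Over all 9 hMut hearts, r with *Ppp1r15a* was 0.18 for *Eif2s1*, 0.21 for *Eif2ak3* and -0.33 for *Eif2ak1*. It was 0.62 for *Eif2ak4* and -0.66 for *Eif2b5*.

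**Figure D5:**
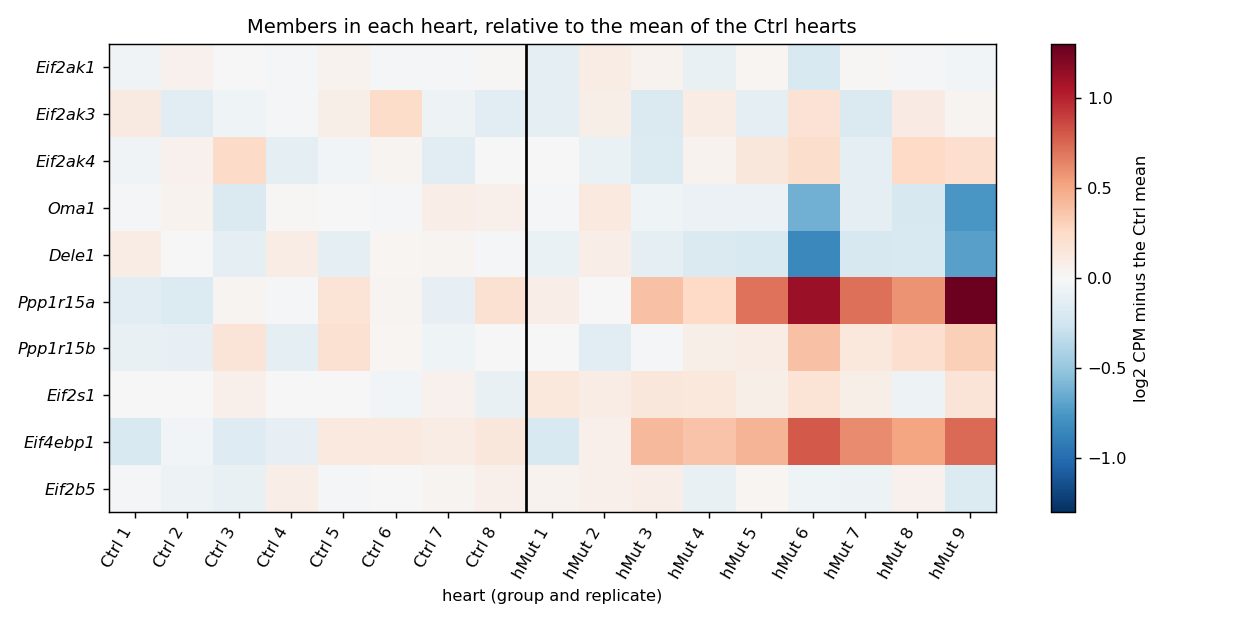
Log2 CPM of each of the 10 genes (rows) in each of the 17 hearts (columns, Ctrl left of the line), minus the mean of the Ctrl hearts, as colour. *Ppp1r15a* and *Eif4ebp1* lie above the Ctrl mean in hMut replicates 3 to 9, from 0.258 (*Ppp1r15a*, replicate 4) to 1.277 (*Ppp1r15a*, replicate 9). *Oma1* and *Dele1* are darkest blue in replicates 6 and 9. The kinases stay between -0.195 (*Eif2ak1*, hMut replicate 6) and 0.262 (*Eif2ak4*, hMut replicate 8), so their reddest cell matches the palest of *Ppp1r15a* in replicates 3 to 9.

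The genes whose levels most resembled the 2 that rose were taken over all 17 hearts after the group means were subtracted, as a description. For *Ppp1r15a* they were *Nmrk2*, an enzyme of NAD synthesis (r = 0.97, log2 difference hMut over Ctrl 2.09, adjusted p = 0.00646), *Nox4*, an NADPH oxidase (r = 0.96, 0.89, adjusted p = 0.0944), and *Map1a*, a microtubule-associated protein (r = 0.95, 1.24, adjusted p = 0.00544). For *Eif4ebp1* they were *Ciao2b*, of cytosolic iron-sulfur assembly (r = 0.95, 0.26, adjusted p = 0.0481), *Ankrd27* (r = 0.94, 0.28, adjusted p = 0.0486) and *Cltb*, a clathrin light chain (r = 0.94, 0.12, adjusted p = 0.185). Over the 15 hearts without hMut replicates 6 and 9, r for these pairs was 0.90 to 0.98.

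Beside the levels of *Ppp1r15a*, *Eif4ebp1*, *Oma1* and *Dele1*, the markers of other cell types were counted in the same test. None of the 12 myeloid, 12 lymphoid, 9 fibroblast or 7 tested erythroid markers passed, with median log2 differences of 0.62, 1.14, 0.25 and -0.13. Summed lymphoid markers were 9.43 to 174.4 CPM in Ctrl and 13.7 to 124.0 in hMut, and erythroid markers 249.6 to 1381 and 281.8 to 1091 CPM. One gene passed, as higher, in each of 4 other lists, *Kdr* of 9 endothelial markers (median 0.068), *Pdgfrb* of 8 mural markers (median 0.195), *Bmp10* of 4 tested atrial markers (median 0.65) and *Acta1* of 3 tested skeletal muscle markers (median 0.68). *Bmp10* went from 0.216 to 10.62 CPM (log2 difference 5.58). Of the other tested atrial markers, *Nppa*, which the study used as a cardiac stress marker, had 1.16, *Myl4* 0.14 and *Nr2f2* -0.19. *Acta1* went from 273.8 to 677.6 CPM, while *Tnnt3* and *Mylpf* had group means of 0.53 to 0.85 CPM. *Myl7* and *Sln* of the atrial list did not pass the filter on low counts. Neither did *Myh1*, *Myh2*, *Myh4* and *Actn3* of the skeletal muscle list. Whether the atrial and skeletal muscle lists mark such tissue in these hearts was not tested. The 6 adipocyte markers summed to at most 1.98 CPM in any heart and none was tested. The part of cell composition in the levels of the 10 genes was not tested.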

How the data were processed

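Heart tissue RNA was poly(A)-selected and sequenced by Novogene on a NovaSeq X Plus, and the authors trimmed reads with fastp, aligned them to mm39/GRCm39 with HISAT2 2.2.1 and counted them per gene with featureCounts 2.0.6. For 17 libraries (9 hMut and 8 Ctrl by the labels' genotype) they deposited raw gene counts. The annotation release and strand setting were not given in the sources used here.

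Differences were tested on counts in edgeR 4.0.16 by quasi-likelihood (R 4.3.3, TMM factors, filterByExpr, condition as the only term) on 16195 genes, with Benjamini-Hochberg adjustment over all of them and a threshold of 0.05. CPM and CPM per kilobase use TMM-scaled library sizes and the gene length in the table. The score and its relations were computed in Python 3.11.15 with scipy 1.17.1. All genes of the named set were reported, with *Polg*, *Eif2ak2*, the 3 genes of smallest adjusted p in each pathway list and the 3 most similar genes of each that passed. The genes and lists were chosen with earlier results of these data known. The scripts were tested on simulated data. Alternatives used DESeq2 1.42.0, limma 3.58.1, other scalings, filters and covariates, and libraries left out. No library pair of 136 held identical values, and depth limits mainly the low-level kinases, whose lowest count was 244. Counts of overlapping genes on opposite strands are uncertain. The promoter windows of the other genes are not reported here.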

Additional observations from a re-analysis of the deposited data

Results flagged for a closer look

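A gap test (Dixon, 95%) over the 10 genes in each group, 20 tests in all, marked 2 single hearts, and chance alone marks about 5% of such groups. *Oma1* in Ctrl replicate 3 was the lowest of the 8 Ctrl hearts, at 31.68 CPM, with a gap of 0.615 of the group's range against a critical value of 0.526. *Eif2s1* in hMut replicate 8 was the lowest of the 9 hMut hearts, at 49.79 CPM, with a gap of 0.567 of the range against 0.493. Replicates 6 and 9 of hMut lie close to each other for *Oma1* and *Dele1*, and this test, which looks for 1 heart apart, does not mark such a pair.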

How the results depend on the processing

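The 749 genes past the threshold became 1548 with DESeq2 (1008 higher, 540 lower), 2081 with limma-voom and sample quality weights (1175 higher, 906 lower), 463 without a filter on low counts, 5215 with libraries scaled on cardiomyocyte markers (5110 higher, 105 lower), 431 without hMut replicates 6 and 9, and 395 to 1792 with single hearts left out (lowest without hMut replicate 5, highest without hMut replicate 2). The 2 of the 10 genes past it became 6 on the cardiomyocyte scale, 1 with sex as a covariate, 1 without replicates 6 and 9, and 0 to 3 with single hearts left out (0 without Ctrl replicate 1 or 2 or hMut replicate 5 or 7). The replicate block, on replicates 1 to 8, gave 185 genes, with *Ppp1r15a* at 0.49 (adjusted p = 0.0459) and *Eif4ebp1* at 0.38 (adjusted p = 0.0351). The numbers do not pair the samples, since same-numbered hearts correlated at -0.23 to 0.34, over 0.1 in 1 of 8 pairs.

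*Ppp1r15a*, *Eif4ebp1*, *Ppp1r15b*, *Eif2s1*, *Eif2ak4* and *Dele1* kept their direction under all 28 alternatives. On the cardiomyocyte scale, where the median of all genes was 0.229, *Eif2ak1* was 0.19, *Eif2ak3* 0.22, *Oma1* 0.0192 and *Eif2b5* 0.21, and relative to that median *Oma1* was -0.21, *Dele1* -0.28, *Ppp1r15a* 0.68 and *Eif4ebp1* 0.47. *Eif2b5* was 0.0071 with the replicate block, 0.0064 with weighted limma-voom and 0.0167 without replicates 6 and 9. With single hearts left out *Eif2ak3* ran from -0.0385 to 0.0240 and *Eif2b5* from -0.0267 to 0.0073, all far from the threshold. *Dele1* passed with limma-voom and quality weights (-0.19, adjusted p = 0.0390). The relations to the score past the threshold rose from 2 to 5 with the median over the list and to 8 on the cardiomyocyte scale, which enters both axes. There r turned to 0.87 for *Eif2ak1*, 0.63 for *Eif2ak3* and 0.74 for *Eif2b5*, and with the median over the list to 0.12 for *Eif2ak3*. Without replicates 6 and 9, an alternative chosen after seeing the data, 0 relations passed over 7 hearts (3 had an unadjusted exact permutation p under 0.05) and r for *Eif2s1* turned to -0.0570. The cause was not tested.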
